A study of Mus musculus with 6 samples.

Results

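The nuclear receptors other than Nr2e3 were described in sorted mouse photoreceptors after a guide RNA against Nr2e3. Members were the 46 genes named in a list of mouse nuclear receptors, and all 46 were found among the 49997 gene symbols counted. No measured value was used to choose them. RNA came from 3 libraries of Nr2e3 guide (below, guide libraries) and 3 of non-targeting control guide (control libraries). Every library held 2 injected retinas from 1 Rosa26-Cas9 mouse, so SpCas9 was present in all cells of both groups. Virus (AAV with a 7m8 coat) was delivered under the retina at postnatal day 21 by the series text or at 4 weeks by the treatment protocol, and cells were taken 6 months later. The virus carried the guide and mCherry driven by a human GRK1 promoter, which is active in photoreceptors, and about 100000 mCherry-positive cells were sorted per library. Guide replicate 1 was male, guide replicates 2 and 3 were female, and the 3 control animals were male. Sorting does not select edited cells, since mCherry marks cells that took up the virus. No control library is female, so guide replicate 1 is the only guide library of the same sex as the controls.

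Nuclear receptors are transcription factors that bind DNA through a zinc finger domain and, in most members, bind a small lipophilic ligand such as thyroid hormone, retinoic acid, a sterol or a steroid. Many of them bind as heterodimers with a retinoid X receptor, and they exchange corepressor for coactivator complexes when ligand is present. In the retina, RORβ acts early in rod fate, thyroid hormone receptor β and RXRγ pattern cone opsins, REV-ERBα works with NR2E3 and CRX in rods, and ERRβ is required for rod survival.

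For 3 members whose levels are described closely below, 1 of their 2 annotated promoter windows is shown, the one with a match to the motifs named next (for Thrb, the one with more matches). Each window is the RefSeq sequence (GRCm38.p6) from 250 bases before to 50 bases after an annotated start, read 5′ to 3′ on the strand of the gene. Capitals mark AAGTCA, known as an NR2E3 site, AGGTCA, the core element of many nuclear receptors, and GGATTA, the CRX site.
Esrrb, chr12:86360867-86361166, plus strand: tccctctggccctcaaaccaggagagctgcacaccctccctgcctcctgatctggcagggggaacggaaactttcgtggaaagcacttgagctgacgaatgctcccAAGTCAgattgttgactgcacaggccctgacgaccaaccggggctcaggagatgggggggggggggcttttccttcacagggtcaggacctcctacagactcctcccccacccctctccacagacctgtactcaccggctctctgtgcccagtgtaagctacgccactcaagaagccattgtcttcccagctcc
Thrb, chr14:17660710-17661009, plus strand: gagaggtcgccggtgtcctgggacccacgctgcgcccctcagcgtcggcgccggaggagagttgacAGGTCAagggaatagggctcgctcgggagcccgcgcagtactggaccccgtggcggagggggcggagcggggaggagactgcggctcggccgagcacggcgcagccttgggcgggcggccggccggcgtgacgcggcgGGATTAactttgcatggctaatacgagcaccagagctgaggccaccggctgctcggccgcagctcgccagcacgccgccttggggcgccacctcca
Rxrg, chr1:167618015-167618314, plus strand: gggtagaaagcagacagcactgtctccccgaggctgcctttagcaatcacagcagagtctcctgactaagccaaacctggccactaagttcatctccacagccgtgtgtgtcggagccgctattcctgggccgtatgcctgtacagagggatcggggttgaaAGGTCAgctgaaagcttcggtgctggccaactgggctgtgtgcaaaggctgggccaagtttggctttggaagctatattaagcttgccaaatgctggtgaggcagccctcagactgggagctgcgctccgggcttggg

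The Esrrb window shown holds AAGTCA at bases 107 to 112, the Thrb window AGGTCA at 67 to 72 and GGATTA at 205 to 210, and the Rxrg window AGGTCA at 163 to 168, counted from 1 at the left end. The other Esrrb window and the other Rxrg window, which lies at the gene's first start, hold 0 matches, and the other Thrb window holds CACGTG alone. The searches, on both strands, were for the core element AGGTCA, the NR2E3 site AAGTCA, the CRX site GGATTA and the clock element CACGTG, together with the longer ROR response element, which contains AGGTCA. Promoter windows were present for 42 of the 46 members, 63 windows in all. AGGTCA was in 12 of the 63 (19.0%), against 16.3% of 32851 promoters of the same length. AAGTCA was in 8 (12.7% against 15.1%), GGATTA in 5 (7.94% against 7.06%), CACGTG in 6 (9.52% against 7.15%) and the ROR element in 0 (0.219% of all). These are matches of letters within 1 window and do not show binding. Windows of a gene can overlap, and a shared site is then counted in each, as for GGATTA of Nr1h3 and CACGTG of Rara.

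The libraries held 27274517, 24705561 and 33098812 gene counts with the Nr2e3 guide and 32626751, 33903752 and 34286248 with the control guide, so 3 counts, taken as the floor, equal 0.0801 to 0.130 CPM. CPM, the unit of level used here, is a count scaled to the library's gene total after TMM scaling. Rod markers summed to 151717 to 165212 CPM with the Nr2e3 guide and 142666 to 182966 CPM with the control guide, with 10 of 10 detected. Cone markers summed to 22348, 21247 and 20998 CPM with the Nr2e3 guide and 11279, 11819 and 6017 CPM with the control guide. That sum is carried by a few abundant genes: of the 11 cone markers 5 had a log2 change above 0, with Gnat2 at 3.30, Pde6c at 2.79, Pde6h at 1.97 and Guca1a at 1.04 the 4 whose groups did not overlap, and 6 were below 0. The 6 were Opn1sw, Opn1mw, Arr3, Gngt2, Cnga3 and Cngb3, from -0.83 to -0.36, with groups that overlapped. The lowest edgeR adjusted p among the 11 was 0.0898, for Pde6c. Control replicate 3 stood apart in its cell type markers, with 10 of 11 cone markers and 12 of 12 amacrine markers below, and 13 of 13 microglia and phagocyte markers above, both other controls. Nr2e3 itself was counted at 2090, 1905 and 2242 CPM with the Nr2e3 guide and at 1755, 1571 and 1505 CPM with the control guide (log2 change 0.37 with SE 0.13, edgeR adjusted p = 0.716). Counts over a whole gene do not read small insertions or deletions, so its level is no check of the labels.

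Of the 46 members, 27 reached 1 CPM in at least 3 of the 6 libraries (called detected here), and 25 reached it in all 6. A further 16 had counts below that level and 3 had none. Markers of other retinal cells were detected too, 13 of 14 for bipolar cells and 11 of 15 for Müller glia. Detection here thus does not place a member in photoreceptors alone. The detected receptors covered the thyroid hormone (2 of 2), retinoid X (3 of 3), REV-ERB (2 of 2), ROR (2 of 2), estrogen-related (3 of 3) and testicular receptor classes (2 of 2) completely, whereas 0 of 2 estrogen receptors, 0 of 2 HNF4 and 0 of 2 NR0B receptors were detected. Counts of all 46 summed to 1693, 1749 and 1548 CPM with the Nr2e3 guide and 1666, 1522 and 1517 CPM with the control guide. Rorb alone made up 32.6, 34.7 and 26.03% of that sum in guide libraries and 29.5, 26.3 and 23.2% in control libraries.

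**Figure D1:**
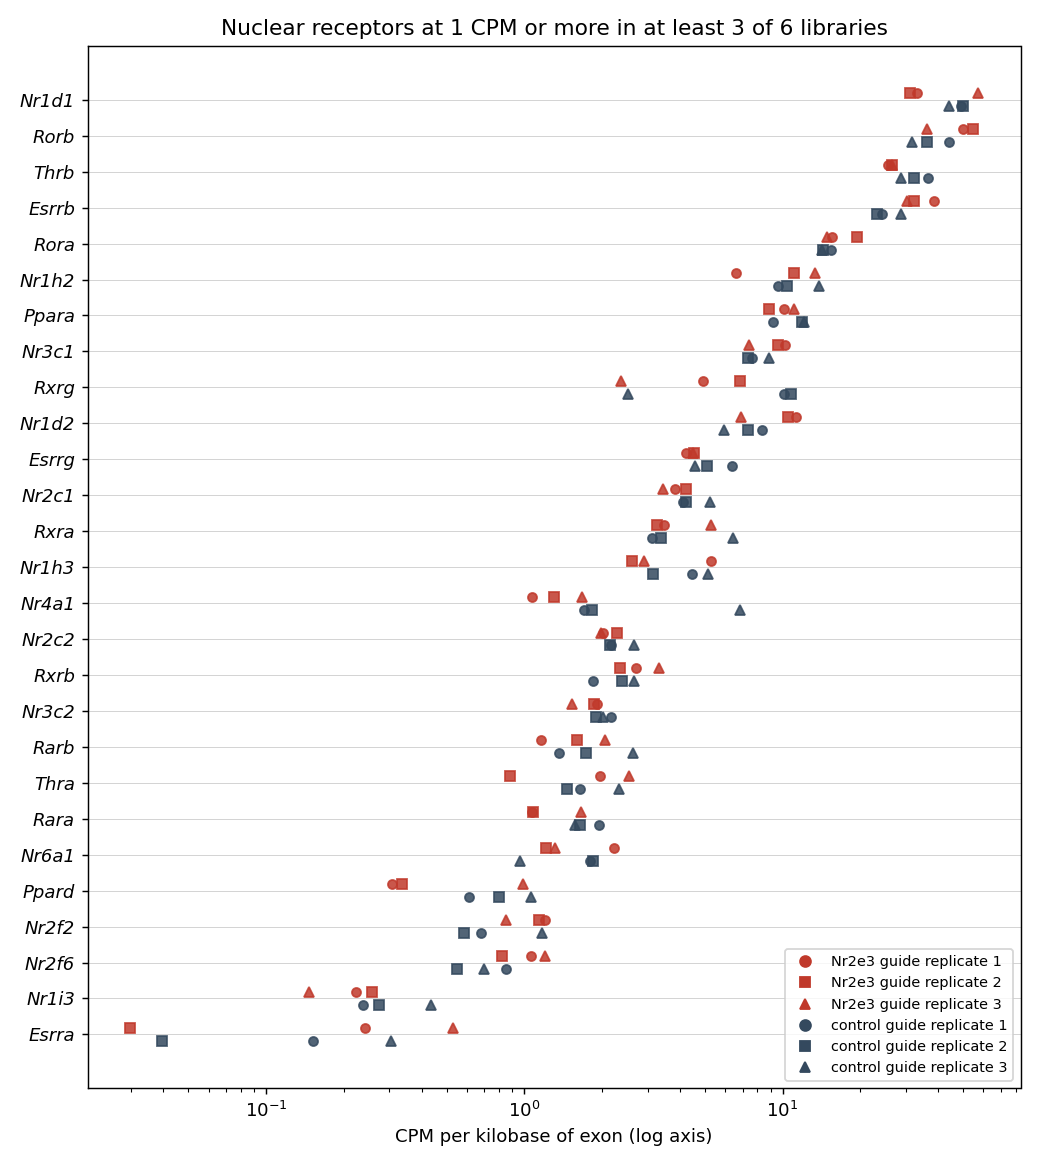
Level of the 27 detected nuclear receptors in each library, as CPM per kilobase of exon on a log axis, ordered by the control mean. Red symbols are the 3 guide libraries and dark symbols the 3 control libraries, with the shape giving the replicate number. Nr1d1, Rorb, Thrb and Esrrb are at the top, and the Rxrg symbols of both replicate 3 libraries lie left of the other 4.

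Levels of different genes were compared per kilobase of exon (GENCODE M21, all transcripts of a gene merged). Nr1d1, which encodes REV-ERBα, was at 40.5 ± 14.5 CPM per kilobase in guide libraries and 47.8 ± 3.17 in control libraries (SD, n = 3 each), the highest control level. Rorb followed at 47.0 ± 9.51 in guide and 37.4 ± 6.38 in control libraries, then Thrb at 26.3 ± 0.512 in guide and 32.6 ± 3.94 in control libraries. Esrrb was at 33.7 ± 4.21 CPM per kilobase in guide and 25.4 ± 2.88 in control libraries, and Rora at 16.6 ± 2.49 in guide and 14.7 ± 0.676 in control libraries. In the order of control levels, the ranges of the neighbours Nr1d1 and Rorb overlapped, as did those of Rorb and Thrb. Ranges did not overlap between Thrb and Esrrb, Esrrb and Rora, or Rora and Nr1h2. Those of Nr1h2 and Ppara did, and those of Ppara and Nr3c1 did not. From Nr3c1, the eighth, down to Nr2f6, every pair of neighbours overlapped. The ordering rests on merged exon lengths, so genes with long alternative ends are placed lower than their main transcript would be.

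Part of some members cannot be counted cleanly, because exons overlap another gene and the strand setting of the counting is not given. Of the 46, 12 share exon bases with a neighbour and 4 share over 10% of them. Nr1i3 shares 74.9% of its exon bases with Tomm40l, Nr2f6 54.4% with Ocel1, Rarb 38.4% mostly with Top2b and Nr2c2 31.2% mostly with Mrps25, each on the opposite strand. Thra and Nr1d1 share 263 bases at their ends, 5.7% of Thra and 8.55% of Nr1d1. Per kilobase of exon not shared, a measure added after seeing the data, Nr1i3 stood at 1.26 in place of 0.316 and Nr2f6 at 1.53 in place of 0.700 CPM per kilobase in control libraries, while the order of the first 12 did not change.

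The comparison asks whether other receptors of the family changed with the Nr2e3 guide. In edgeR's quasi-likelihood test, with p adjusted by Benjamini-Hochberg over all 17138 genes tested, 0 of the 32 members that passed the count filter were called in either direction, where 0.344% of all genes were called (54 higher and 5 lower). DESeq2 (37 members) and limma-voom (32) also called 0, where they called 1.55% and 1.04% of all genes. At an unadjusted p under 0.05 there were 4 of 32 by edgeR (12.5%, against 5.69% of all genes), 6 of 37 by DESeq2 (against 6.19%) and 5 of 32 by limma-voom (against 11.5%). Among the 4, Esrrb was higher (3.08% of all genes were) and Thrb, Nr4a1 and Nr4a2 were lower (2.61%). Esrrb and Nr4a2 were also under 0.05 by DESeq2 and limma-voom. Nr4a1 was so by DESeq2 but not limma-voom, and Thrb by limma-voom but not DESeq2. The members under 0.05 by limma-voom also included Rxrg and Nr2f2, and those by DESeq2 Hnf4a, Nr4a3 and Vdr. Groups did not overlap for 5 of 32 (15.6%, against 12.1% of all genes), which are the 4 from edgeR and Esrrg. Of the 5, 1 was higher (6.18% of all genes) and 4 lower (5.92%). Log2 fold changes were above 0 for 11 and below 0 for 21 members, with a median of -0.17 against -0.01 for all genes tested.

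**Figure D2:**
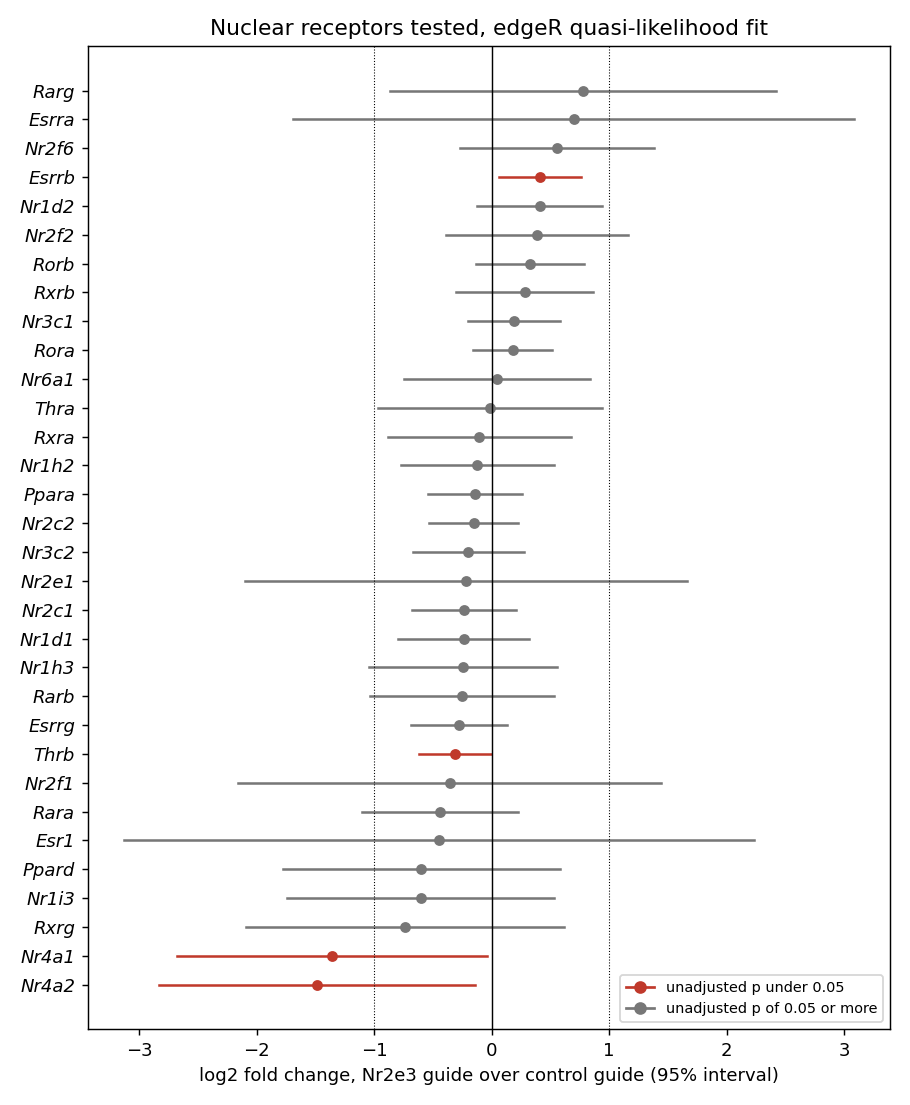
Log2 fold change (Nr2e3 guide over control guide) of the 32 tested nuclear receptors with 95% intervals from the edgeR fit, ordered by size. Red marks the 4 members at unadjusted p under 0.05, and dotted lines mark a 2-fold change either way. Intervals of 17 members lie wholly between the dotted lines.

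The fit bounds many of these receptors. For 17 of the 32 the 95% interval of the log2 fold change lay within 2-fold either way, Rorb, Rora, Nr1d1, Nr1d2, Thrb, Esrrb and Esrrg among them. Wider intervals belonged to members of low level, such as Esr1 at -3.13 to 2.23 and Esrra at -1.69 to 3.09, and to better detected members whose libraries differed within a group, such as Rxrg at -2.09 to 0.62 and Nr4a1 at -2.68 to -0.04. Of the 32, Nr4a1 and Nr4a2 had a fitted change past 2-fold, where 8.36% of all genes tested did.

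Thrb (chromosome 14, 17659225 to 18040097), the thyroid hormone receptor that is needed for M opsin in mouse cones, was at 190, 197 and 197 CPM with the Nr2e3 guide and 272, 238 and 214 CPM with the control guide. Every guide library lay below every control library, and the guide values were close together, while control replicate 3 was nearest to them. The log2 fold change was -0.31 (SE 0.13, 95% interval -0.62 to -0.0005, edgeR unadjusted p = 0.0497, adjusted p = 0.877). Gene counts do not separate the β1 and β2 transcripts, of which β2 is the cone form. Thra, the other thyroid hormone receptor, was at 4.04 to 11.7 CPM with the Nr2e3 guide and 6.77 to 10.7 CPM with the control guide (log2 change -0.01 with SE 0.41).

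Rxrg (chromosome 1, 167598362 to 167639623), the retinoid X receptor of cones, was at 11.3, 15.8 and 5.44 CPM with the Nr2e3 guide and 23.4, 24.9 and 5.79 CPM with the control guide. Both replicate 3 libraries were low and the groups overlapped through them. The log2 fold change was -0.73 (SE 0.58, 95% interval -2.09 to 0.62, edgeR adjusted p = 0.995), and leaving out 1 library at a time it ran from -1.16 without control replicate 3 (adjusted p = 0.462) to -0.41 without guide replicate 3 (adjusted p = 0.871). Opn1sw, the S opsin, was at 1573, 919 and 695 CPM with the Nr2e3 guide and 2268, 3014 and 381 CPM with the control guide, and Opn1mw, the M opsin, at 454, 390 and 234 CPM with the Nr2e3 guide and 871, 651 and 183 CPM with the control guide. Rxrg and both opsins were lowest of their group in the replicate 3 libraries. That held for 10 of the 11 cone markers in control replicate 3 and for 7 in guide replicate 3. In bulk RNA, fewer cones and less RNA per cone cannot be told apart. Rxrg and Thrb had log2 changes below 0, while the 11 cone markers were split, with 6 below 0 and 5 above. The 4 cone markers whose groups did not overlap (Gnat2, Pde6c, Pde6h and Guca1a) were all above 0, as given above. The part of cone content in the values of Rxrg and Thrb was not tested.

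None of the other retinoid X and retinoic acid receptors had an unadjusted p under 0.05 by edgeR. Rxra, a common dimer partner, was at 17.8 to 28.9 CPM with the Nr2e3 guide and 17.0 to 35.1 CPM with the control guide, with the highest value of each group in replicate 3, and Rxrb, its close relative, at 9.31 to 13.3 CPM with the Nr2e3 guide and 7.36 to 10.6 CPM with the control guide. Among the retinoic acid receptors, Rara was at 4.66 to 7.21 CPM with the Nr2e3 guide and 6.86 to 8.51 CPM with the control guide. Rarb was at 6.13 to 10.8 CPM with the Nr2e3 guide and 7.17 to 13.9 CPM with the control guide, and Rarg reached 1 CPM in 2 libraries only. Their log2 fold changes ran from -0.44 for Rara to 0.78 for Rarg, each with edgeR adjusted p = 0.995.

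**Figure D3:**
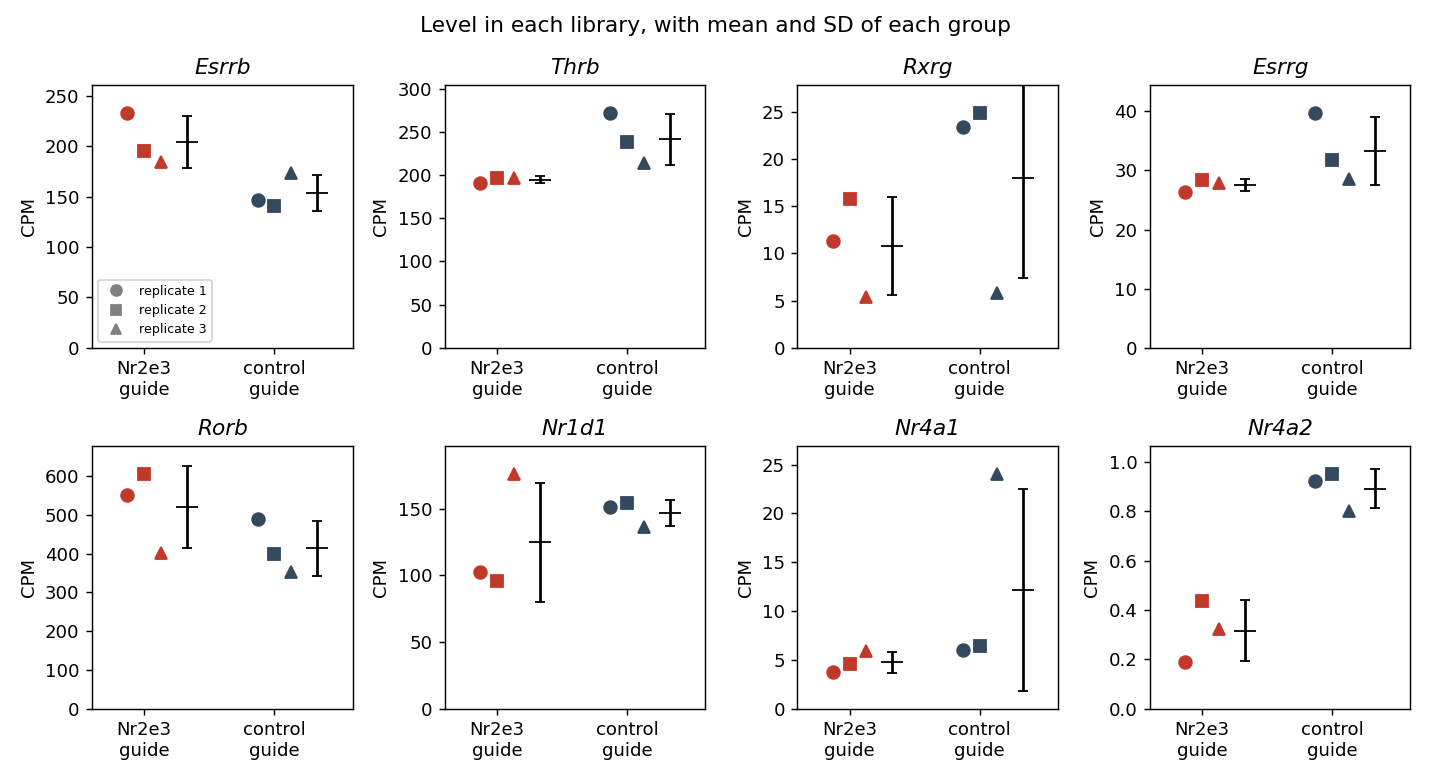
CPM in each library for 8 nuclear receptors, with guide libraries on the left of each panel and control libraries on the right, and mean and SD (n = 3) as a bar beside the points. Esrrb is higher in every guide library, Thrb, Esrrg, Nr4a1 and Nr4a2 are lower in every guide library, and Rxrg, Rorb and Nr1d1 overlap between groups.

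Esrrb (chromosome 12, 86361117 to 86521628), the orphan receptor ERRβ that controls energy metabolism genes in rods, was the 1 tested member above every control library in all guide libraries. It was at 233, 195 and 184 CPM with the Nr2e3 guide and at 147, 140 and 173 CPM with the control guide. The gap between the lowest guide value and control replicate 3 was narrow. The log2 fold change was 0.41 (SE 0.15, 95% interval 0.06 to 0.76, edgeR unadjusted p = 0.0268, adjusted p = 0.733). It ran from 0.30 to 0.60 over 17 other settings, and its adjusted p stayed at 0.123 or above in all of them. Esrrg (chromosome 1, 187608510 to 188214885), its relative ERRγ, was lower in each guide library without an unadjusted p under 0.05, at 26.4, 28.3 and 27.9 CPM with the Nr2e3 guide and 39.7, 31.7 and 28.5 CPM with the control guide (log2 change -0.28 with SE 0.18, adjusted p = 0.995). The highest guide value and control replicate 3 were almost equal. Esrra, or ERRα, was at 0.130 to 2.32 CPM with the Nr2e3 guide and 0.173 to 1.33 CPM with the control guide.

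Rorb (chromosome 19, 18930609 to 19111196), which acts upstream of Nrl and Nr2e3 in rod development, was at 552, 606 and 403 CPM with the Nr2e3 guide and 491, 400 and 352 CPM with the control guide. Guide replicate 3 was the low value of its group and overlapped the controls. The log2 fold change was 0.33 (SE 0.20, 95% interval -0.13 to 0.79, edgeR adjusted p = 0.995). Rora (chromosome 9, 68653404 to 69388246), a related receptor that can raise cone opsins, was at 204, 255 and 194 CPM with the Nr2e3 guide and 202, 188 and 186 CPM with the control guide (log2 change 0.18 with SE 0.14). Guide replicate 2 was the single high value.

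The REV-ERB repressors compete with ROR receptors for the same element and cycle with the clock. Nr1d1 (chromosome 11, 98767932 to 98775377) was at 102, 95.9 and 176 CPM with the Nr2e3 guide and 151, 154 and 136 CPM with the control guide. Guide replicate 3 lay above every control and the other guide libraries lay below every control. The log2 fold change was -0.24 (SE 0.24, 95% interval -0.79 to 0.32, edgeR adjusted p = 0.995), and leaving out 1 library at a time it ran from -0.57 without guide replicate 3 (adjusted p = 0.319) to -0.08 without guide replicate 2. Nr1d2 (chromosome 14, 18204056 to 18239106), or REV-ERBβ, was at 61.1, 57.1 and 37.3 CPM with the Nr2e3 guide and 45.1, 39.9 and 32.0 CPM with the control guide (log2 change 0.41 with SE 0.23, adjusted p = 0.980). It was lowest of its group in both replicate 3 libraries. The hour at which retinas were taken is not given in the sources used here.

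Lipid-sensing receptors were led by Nr1h2 and Ppara. Nr1h2 (chromosome 7, 44549616 to 44553968), the oxysterol receptor LXRβ, was at 22.1, 37.3 and 44.7 CPM with the Nr2e3 guide and 32.1, 34.8 and 46.3 CPM with the control guide (log2 change -0.12 with SE 0.28). Ppara (chromosome 15, 85734910 to 85806851), which drives fatty acid oxidation genes, was at 39.0, 34.1 and 42.3 CPM with the Nr2e3 guide and 35.1, 45.5 and 46.3 CPM with the control guide (log2 change -0.14 with SE 0.17). Guide and control values interleaved for both genes. Nr1h3, or LXRα, was at 6.57 to 13.3 CPM with the Nr2e3 guide and 7.93 to 12.97 CPM with the control guide, and Ppard, a broadly expressed PPAR, at 2.31 to 7.41 CPM with the Nr2e3 guide and 4.60 to 7.98 CPM with the control guide. Pparg, the fat cell receptor, had 3 counts in control replicate 1 and 0 elsewhere, so it was at or under the floor in every library.

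Among steroid receptors the glucocorticoid receptor was the abundant one. Nr3c1 (chromosome 18, 39410545 to 39519421) was at 78.9, 73.5 and 57.2 CPM with the Nr2e3 guide and 58.7, 56.7 and 68.4 CPM with the control guide (log2 change 0.19 with SE 0.17, 95% interval -0.20 to 0.58). Guide replicates 1 and 2 lay above every control, and guide replicate 3 lay among the controls. Nr3c2, the mineralocorticoid receptor, was at 9.88 to 12.4 CPM with the Nr2e3 guide and 12.3 to 14.0 CPM with the control guide. Sex hormone receptors were near the floor. Esr1 had 12, 0 and 17 counts in guide and 28, 8 and 8 counts in control libraries, Esr2 had 11, 0 and 0 counts in guide and 0, 0 and 32 counts in control libraries, and Pgr had 4 counts at most.

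The orphan receptors of the NR2 branch, to which Nr2e3 belongs, were mostly low. Nr2c2 and Nr2c1, the testicular receptors TR4 and TR2, were at 29.6 to 34.1 and 15.9 to 19.6 CPM with the Nr2e3 guide and at 32.2 to 39.7 and 19.0 to 24.2 CPM with the control guide. COUP-TFII, encoded by Nr2f2, was at 7.32 to 10.3 CPM with the Nr2e3 guide and 5.04 to 10.1 CPM with the control guide. Nr2f6, a relative of the COUP-TFs, was at 2.44 to 3.59 CPM with the Nr2e3 guide and 1.64 to 2.54 CPM with the control guide. Nr2f1, or COUP-TFI, was at 0.130 to 0.568 CPM with the Nr2e3 guide and 0.213 to 0.663 CPM with the control guide. Nr2e1, or tailless, the closest relative of Nr2e3, had 4, 8 and 31 counts in guide and 16, 30 and 11 counts in control libraries. None of these 6 had an unadjusted p under 0.05 by edgeR, while Nr2f2 did by limma-voom. Nr6a1, the germ cell nuclear factor, was at 13.1 to 24.1 CPM with the Nr2e3 guide and 10.5 to 19.9 CPM with the control guide.

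NR4A receptors are immediate early genes that need no ligand. Nr4a1 (chromosome 15, 101253902 to 101274795) was at 3.75, 4.57 and 5.88 CPM with the Nr2e3 guide and 5.97, 6.43 and 24.0 CPM with the control guide. Control replicate 3 was higher than the other controls by 1.87 on the log2 scale, and the highest guide value nearly met the lowest control. The log2 fold change of -1.36 (SE 0.57, edgeR unadjusted p = 0.0453, adjusted p = 0.865) was -0.39 without control replicate 3 (adjusted p = 0.843). In that library the microglia and phagocyte markers summed to 331 CPM, against 35.4 and 38.2 CPM in the other controls and 37.3, 190 and 128 CPM with the Nr2e3 guide, with 0 of the 13 at 0 counts. Their part in the Nr4a1 value was not tested. Nr4a2 (chromosome 2, 57106830 to 57124003) had 5, 10 and 11 counts in guide and 29, 33 and 30 counts in control libraries, or 0.189, 0.435 and 0.324 CPM with the Nr2e3 guide against 0.920, 0.951 and 0.801 CPM with the control guide. All guide values lay below all controls (log2 change -1.49 with SE 0.58, unadjusted p = 0.0344, adjusted p = 0.791). Amacrine markers, the amacrine cell being a neuron in which Nr4a2 is known, summed to 174, 65.2 and 306 CPM with the Nr2e3 guide and 310, 354 and 139 CPM with the control guide. Of these 12 markers, 11 had a log2 change below 0 and 1 above. Groups did not overlap for 1, Th, with 1, 0 and 4 counts in guide and 37, 63 and 14 in control libraries (edgeR adjusted p = 0.324). The part of amacrine cells in the Nr4a2 values was not tested. Nr4a3 had 0 counts in every guide library and 25, 4 and 1 counts in control libraries, so control replicate 3 was under the floor of 3 counts.

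Of the 14 members that did not pass the count filter, Nr5a2, Nr0b1 and Nr0b2 had 0 counts in all 6 libraries, which allows up to 0.0801 to 0.130 CPM by counting error alone. Vdr, the vitamin D receptor, had 27, 5 and 0 counts in guide and 0, 0 and 1 counts in control libraries, so most of its reads came from guide replicate 1. Hnf4a had 4, 0 and 0 counts in guide and 15, 8 and 24 counts in control libraries. For Nr1h4, the bile acid receptor FXR, they were 0, 0 and 16 in guide and 9, 4 and 10 in control libraries. Nr1i3, the xenobiotic receptor CAR, did pass the filter, at 0.647 to 1.13 CPM with the Nr2e3 guide and 1.05 to 1.92 CPM with the control guide. Nr1h5, Nr1i2, Hnf4g and Nr5a1 had at most 8 counts in any library. Of the 14, Hnf4a, Nr4a3 and Vdr had an unadjusted p under 0.05 by DESeq2 and in edgeR without a count filter (5 of 43 members there, against 4.98% of all genes), and 0 were called. Groups did not overlap for Hnf4a and Nr4a3, both lower in every guide library. How many of all genes below the filter do so was not counted. Guide counts of Hnf4a and Nr4a3 were near or under the floor, while control counts ran from 8 to 24 for Hnf4a and from 1 to 25 for Nr4a3.

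Within groups, replicate 3 differed from the other libraries for many members. Of the 27 detected members, 9 were highest of their group in both replicate 3 libraries (33.3%, against 19.0% of all genes tested) and 4 were lowest in both (14.8%, against 18.1%). The 9 were Thra, Rarb, Rxra, Rxrb, Ppara, Ppard, Nr1h2, Esrra and Nr4a1, and the 4 were Rxrg, Nr1d2, Rora and Rorb. Replicate numbers name different mice, and the labels tie no guide library to a control library. Rxrg and the cone opsins were lowest of their group in both replicate 3 libraries, as given above, but not all cone markers were. Of the 11 cone markers, 10 were below and 1 above both other controls in control replicate 3. In guide replicate 3, 7 were below and 2 above both other guide libraries. Amacrine markers were high in guide replicate 3 (12 of 12 above both other guide libraries) and low in control replicate 3. What moved these members within groups was not tested.

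**Figure D4:**
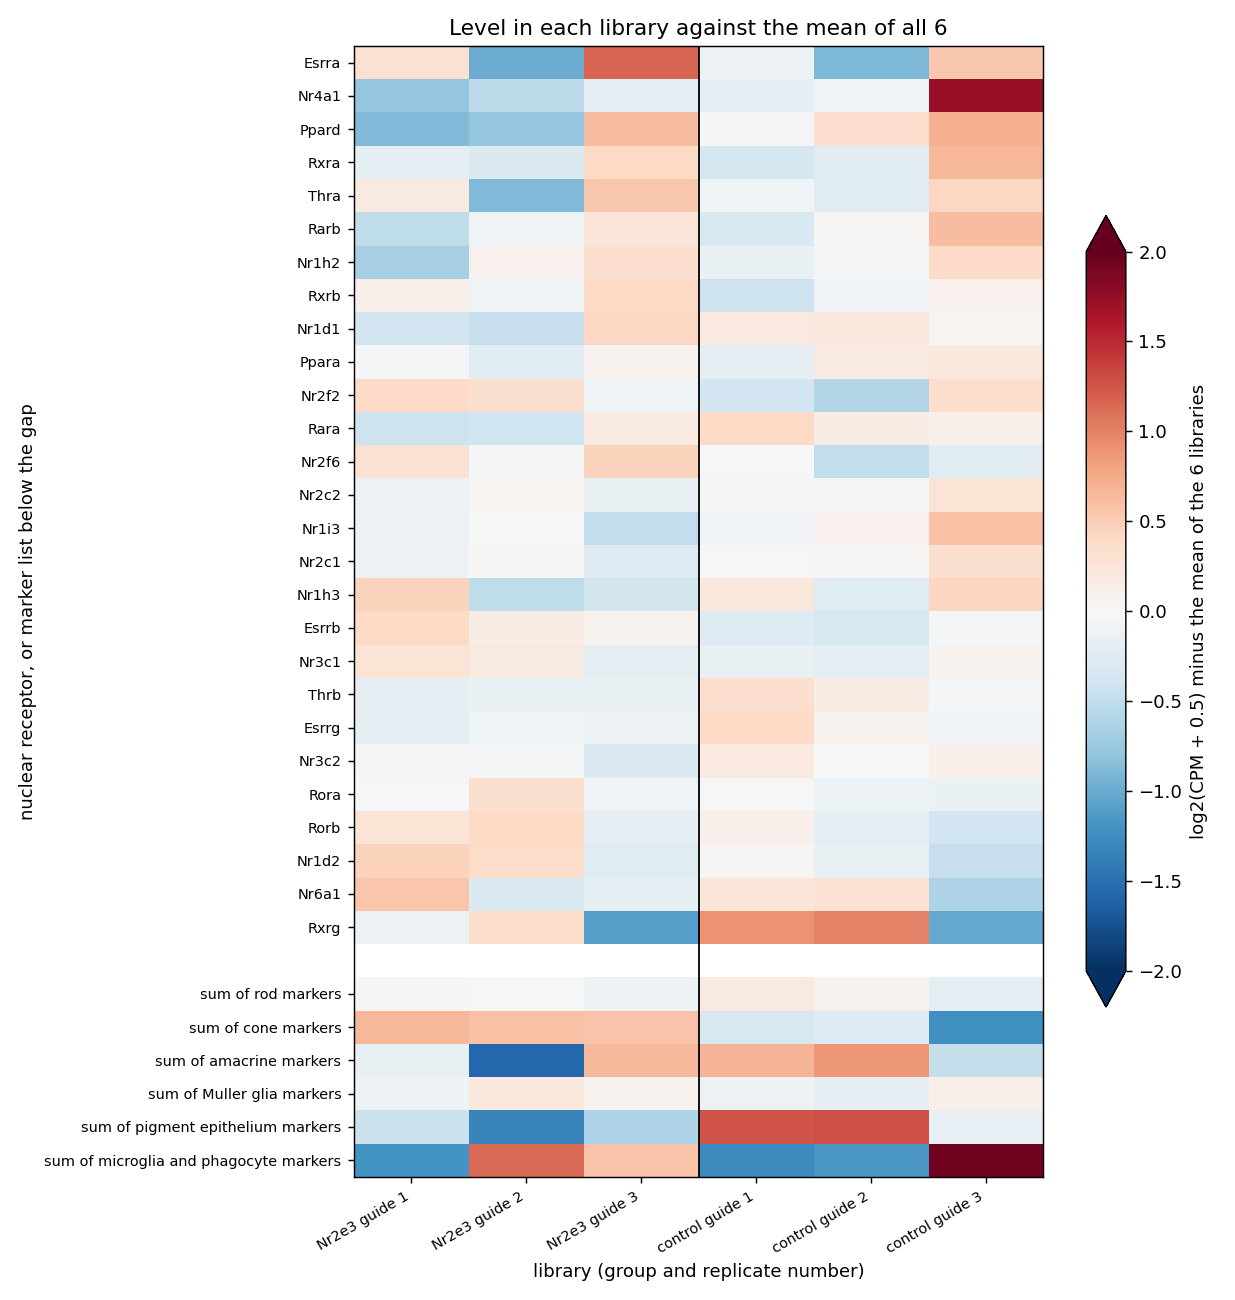
Level of the 27 detected nuclear receptors in each library as log2(CPM + 0.5) minus the mean of the 6 libraries, with guide libraries left of the line and control libraries right of it, and summed marker lists below the gap. Red is above and blue below the mean. Rxrg is low in both replicate 3 libraries and Nr4a1 is high in control replicate 3.

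Partners and pathway genes of the receptors were read from 9 lists with 134 genes, of which 112 were tested. By edgeR 0 of the 112 were called and 9 had an unadjusted p under 0.05 (8.04%, against 5.69% of all genes). Of the corepressor genes 14 of 15 and of the coactivators 18 of 18 were tested, with 0 at unadjusted p under 0.05 in either list and medians of -0.02 and -0.10. Nrip1, a ligand-dependent corepressor, averaged 92.9 CPM with the Nr2e3 guide and 80.5 CPM with the control guide, and Ncor1, a main corepressor of unliganded receptors, 67.9 CPM with the Nr2e3 guide and 73.0 CPM with the control guide. The coactivator Ncoa1 averaged 180 CPM with the Nr2e3 guide and 185 CPM with the control guide, and Med1, of the Mediator complex, 126 CPM with the Nr2e3 guide and 137 CPM with the control guide.

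Ligand supply lists held the widest values. Of 12 thyroid hormone genes 10 were tested, with a median of -0.64 that ran from -0.83 without guide replicate 3 to -0.12 without control replicate 2. By edgeR 1 of the 10 had an unadjusted p under 0.05, as did 5.69% of all genes. The list was led in level by Slc7a8, an amino acid transporter that carries thyroid hormone, at 55.2 ± 14.2 CPM with the Nr2e3 guide and 81.7 ± 21.7 CPM with the control guide, and Crym, a thyroid hormone binding protein, at 13.4 CPM in both means. Slc16a10, a thyroid hormone transporter named after its values were seen, was at 1.32 ± 0.657 CPM with the Nr2e3 guide and 0.0680 ± 0.0348 CPM with the control guide (edgeR adjusted p = 0.118). Its counts were 53, 16 and 43 in guide and 3, 1 and 3 in control libraries, so every control was at or under the floor. Slc16a10 passed with DESeq2 (adjusted p = 0.00048) and in edgeR without a count filter (0.0456), which called 0.48% of all genes. Of 14 retinoic acid genes 8 were tested, with a median of -0.02 that ran from -0.63 without guide replicate 3 to 0.38 without control replicate 2. Of the 8, 3 had an unadjusted p under 0.05 by edgeR (against 5.69% of all genes). Dhrs3, a retinaldehyde reductase of photoreceptors, was at 942 ± 174 CPM with the Nr2e3 guide and 1317 ± 111 CPM with the control guide (log2 change -0.48 with SE 0.16, adjusted p = 0.660) and Fabp5, a fatty acid and retinoic acid carrier, averaged 8.26 CPM with the Nr2e3 guide and 7.12 CPM with the control guide. Rdh10, a retinol dehydrogenase named after its values were seen, was at 10.1 ± 2.80 CPM with the Nr2e3 guide and 3.13 ± 1.52 CPM with the control guide (log2 change 1.68 with SE 0.41, edgeR adjusted p = 0.288). It passed with DESeq2 (adjusted p = 0.00668) and limma-voom (0.0124). Rbp4, the retinol carrier, at 0.763 CPM with the Nr2e3 guide against 0.0288 CPM with the control guide, passed with DESeq2 (adjusted p = 0.0410). Rbp4 had 30, 15 and 17 counts in guide and 0, 3 and 0 in control libraries, so its controls were also at or under the floor.

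**Figure D5:**
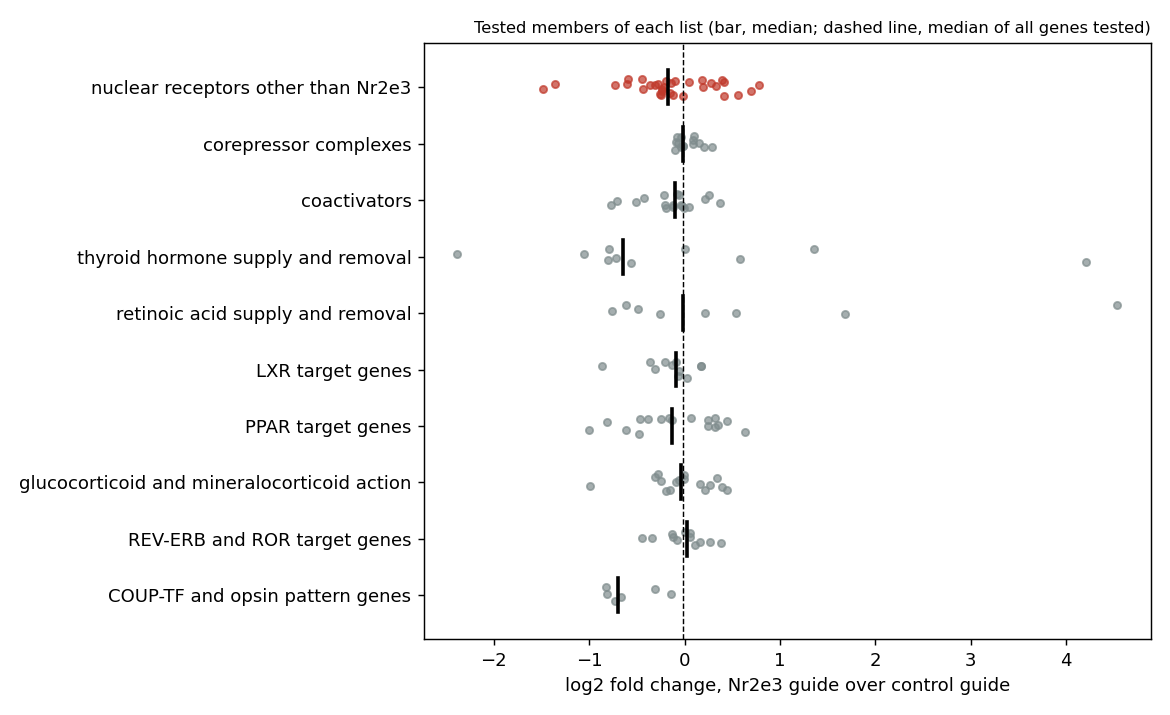
Log2 fold change (Nr2e3 guide over control guide) of each tested gene in the family and in the 9 pathway lists, with a bar at the median of each list and a dashed line at the median of all genes tested, -0.01. The nuclear receptors lie between -1.49 and 0.78, and the widest points belong to the lists of thyroid hormone and retinoic acid supply.

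Target gene lists had no called member by edgeR, DESeq2 or limma-voom. Unadjusted p in these lists is from edgeR, where 5.69% of all genes were under 0.05. Of 13 LXR targets 11 were tested (median -0.09, 0 at unadjusted p under 0.05), with the sterol exporters Abcg1 at 388 CPM with the Nr2e3 guide and 424 CPM with the control guide and Abcg4 at 91.2 CPM with the Nr2e3 guide and 94.8 CPM with the control guide (means). Of 24 PPAR targets 17 were tested (median -0.13, 3 at unadjusted p under 0.05), with Acadm, a fatty acid oxidation enzyme, at 329 ± 28.6 CPM with the Nr2e3 guide and 264 ± 21.7 CPM with the control guide (edgeR adjusted p = 0.865), and Cpt1a, the carnitine transferase of that pathway, at 194 CPM with the Nr2e3 guide and 212 CPM with the control guide. Glucocorticoid action had 16 of 19 genes tested (median -0.03, 1 at unadjusted p under 0.05), with the kinase Sgk1 at 1476 CPM with the Nr2e3 guide and 1269 CPM with the control guide and the chaperone Hsp90aa1 at 1179 CPM with the Nr2e3 guide and 1187 CPM with the control guide. For REV-ERB and ROR targets, all 12 were tested (median 0.03, 0 at unadjusted p under 0.05), with the clock-controlled factors Bhlhe41 at 239 CPM with the Nr2e3 guide and 199 CPM with the control guide and Tef at 72.6 CPM with the Nr2e3 guide and 79.5 CPM with the control guide. The list of opsin pattern genes, which includes Thrb and Rxrg, had 6 of 7 tested and 1 gene (Thrb) at unadjusted p under 0.05. Its median of -0.70 ran from -0.97 without control replicate 3 to -0.31 without control replicate 1.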

How the data were processed

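The authors deposited raw counts of reads for 49997 gene symbols in each library, beside 5 summary entries (reads with no or several genes). Their own pipeline, according to the submitters' processing notes, lists STAR 2.7.3a, HTSeq 0.12.4, DESeq2 1.42.0 and cutadapt, with the build GRCm38 (mm10). No annotation or strand setting is stated for it. The summary entries held 21.6 to 23.7% of counts and stayed out of totals and tests. Per the labels' protocols, RNA was amplified with a SMARTer Ultra Low kit.

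Tests used edgeR 4.0.16 under R 4.3.3, with TMM factors, filterByExpr (min.count 10) and the quasi-likelihood functions glmQLFit and glmQLFTest on a model of group alone (Benjamini-Hochberg adjusted p under 0.05 over all genes tested). Log2 changes are Nr2e3 guide over control guide, the SE is the log2 change over the square root of F, and its 95% interval uses the fit's total degrees of freedom. The code was tested on simulated data. Alternatives were other scalings, DESeq2, limma-voom (limma 3.58.1), other filters, sex as a term, males only, a replicate block and each library left out. Replicates are separate mice. Within groups, pairs of libraries differed by more than sampling noise (chi-square per degree of freedom of 15.6 to 152.9). The intervals of log2 changes include the spread between libraries, while the floor of 3 counts covers counting error only, since reads carry no molecular identifiers.

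Values in every library are given for members at unadjusted p under 0.05, those of at least 1 CPM whose groups do not overlap, the 10 highest per kilobase in control libraries, and Thrb and Rxrg. Each pathway list names the 2 members of highest level. Other genes were chosen after their values were seen. The members, lists and alternatives were chosen with earlier results of these data known. Sequences and coordinates are from RefSeq GRCm38.p6, with 46 of 46 members matched.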

Additional observations from a re-analysis of the deposited data

How the results depend on the processing

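Of the 32 nuclear receptors tested, 0 passed in any of 17 other settings, and the lowest adjusted p was 0.123 (Esrrb, limma-voom). In 21 of the 32 the direction held in all settings where the gene was tested, Esrrb, Thrb, Rxrg, Esrrg, Rorb, Nr1d1, Nr4a1 and Nr4a2 among them. Detected members numbered 27 in the main count and stayed within 1.5 times of it under every other threshold tried.

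The other 11 changed sign in some setting, with the cause not tested. With limma-voom, Thra was at 0.13, Rxra at 0.18, Nr1h3 at 0.018 and Nr6a1 at -0.13. With a sex term in the model, which leaves guide replicate 1 alone to set the guide effect, Thra was at 0.12, Rarg at -0.38, Nr1h3 at 0.31, Nr2f1 at 0.37 and Esr1 at 0.041. On males only, with 1 guide library assumed to vary like the controls, the same genes were at 0.10, -0.39, 0.29, 0.35 and 0.027. Without both replicate 3 libraries Rxra was at 0.057, Nr1h3 at 0.051 and Nr6a1 at -0.075, and with library totals alone Nr6a1 was at -0.011. Leaving out 1 library at a time gave ranges of -0.35 to 0.31 for Thra, -0.47 to 0.049 for Rarb, -0.36 to 0.30 for Rxra, -0.35 to 0.12 for Nr1h2, -1.15 to 0.24 for Nr2e1, -0.92 to 0.055 for Nr2f1, -0.93 to 0.53 for Esr1, -0.28 to 1.48 for Esrra and -0.28 to 0.20 for Nr6a1.

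Over all genes, 54 rose and 5 fell. DESeq2 called 211 higher and 76 lower, limma-voom 160 and 19, no count filter 130 and 25, and sex as a term 6 and 0. An adjusted p under 0.1 gave 83 higher and 8 lower, and library totals alone 39 higher and 3 lower. Leaving out 1 library gave 14 to 80 higher and 0 to 9 lower. The replicate block called 31 higher and 1 lower, with 0 nuclear receptors. Deviations of same-numbered libraries correlated at 0.14, -0.14 and 0.04, so the numbers were not treated as pairs. In the lists, the 12 thyroid hormone genes had 1 higher by DESeq2 and 1 without a count filter. The 14 retinoic acid genes had 2 higher by DESeq2 and 1 by limma-voom. Of all genes, DESeq2 called 1.14% higher, limma-voom 0.934% and edgeR without a count filter 0.403%. Depth limits the members near the floor, whose intervals span over 2-fold.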
